A study of Mus musculus with 10 samples.

Results

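The Zfhx genes (Zfhx2, Zfhx3 and Zfhx4) and the Tshz genes (Tshz1, Tshz2 and Tshz3) encode zinc-finger transcription factors that also carry homeobox-type DNA-binding domains. These 6 genes, of 30935 in the count table, were taken as a family by name and were chosen by their fold changes between the genotypes in these same libraries (opposite shifts of Zfhx3, Zfhx4 and Tshz2), so every difference between genotypes given for them is a description and carries no p-value. RNA was sequenced from mouse cerebral cortex taken 8 days after birth. 5 libraries came from Rbfox1 +/+ mice, called wild type (replicates 2, 4, 5, 6 and 7), and 5 from Rbfox1 ΔHAR.505/ΔHAR.505 mice, homozygous for the deletion of a human accelerated region element in the Rbfox1 locus and called knockout (replicates 1, 3, 5, 6 and 8). The sources used here give neither strain nor litter. The study asks which genes differ in the cortex when the element is deleted.

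Zfhx proteins are among the largest transcription factors of the mouse and carry several homeodomains and many zinc fingers. Zfhx3, also known as Atbf1, acts in neuronal differentiation, in the circadian neurons of the hypothalamus and in the development of striatal projection neurons. Zfhx4 is expressed in the developing brain, and Zfhx2 is a neuronal relative linked to pain sensitivity. The Tshz proteins are the vertebrate counterparts of Drosophila teashirt and act mainly as transcriptional repressors. Tshz1 acts in neurons that derive from the lateral ganglionic eminence, among them olfactory bulb and striatal neurons. Tshz2 marks the near-projecting neurons of the deep cortical layers, and Tshz3 acts in deep-layer cortical projection neurons, including those that project to the striatum.

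Zfhx3 was the member with the most negative fold change and Tshz2 that with the most positive, so the 250 bases before their RefSeq transcription starts are shown, on the plus strand of GRCm38.p6. Capitals mark the homeodomain core TAAT and the GC box GGGCGG, each searched on both strands. The Zfhx3 window lies at chr8:108714394-108714643 and the Tshz2 window at chr2:169632259-169632508.
Zfhx3: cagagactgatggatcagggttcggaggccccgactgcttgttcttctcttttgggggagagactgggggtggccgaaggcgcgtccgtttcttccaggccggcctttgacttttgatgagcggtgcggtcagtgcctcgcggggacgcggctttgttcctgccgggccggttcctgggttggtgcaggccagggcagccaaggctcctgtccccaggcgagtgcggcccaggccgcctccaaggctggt
Tshz2: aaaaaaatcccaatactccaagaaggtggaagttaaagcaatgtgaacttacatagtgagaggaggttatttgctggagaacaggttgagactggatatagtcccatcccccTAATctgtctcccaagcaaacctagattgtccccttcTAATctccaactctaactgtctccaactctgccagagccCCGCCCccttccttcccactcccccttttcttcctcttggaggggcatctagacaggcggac
The Zfhx3 window is 66.0% G and C with 18 CpG dinucleotides and holds neither motif. The Tshz2 window is 48.8% G and C with 2 CpG dinucleotides and holds TAAT at 2 places and the GC box at 1. Of 32851 such windows in the RefSeq table, 54.9% hold TAAT and 32.7% hold GGGCGG, and the median window has 52.4% G and C and 6 CpG dinucleotides. The sequences are a description of these windows and were not measured in the libraries.

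The libraries held between 16479594 and 22391943 counts. Values are given as CPM, gene counts scaled to a common library total, and a log2 fold change is that of knockout against wild type. Libraries stood apart in the levels of genes that mark neighbouring tissue, and the cause was not tested. The summed level of 18 choroid plexus and ependymal genes ran from 266 to 329 CPM in wild type, stood at 243 and 110 CPM in knockout replicates 1 and 8, and at 21.7, 30.6 and 29.0 CPM in knockout replicates 3, 5 and 6. In wild type and in knockout replicates 1 and 8 most of this sum was Ttr, the transthyretin gene of the choroid plexus. In knockout replicates 3, 5 and 6 Ttr stood at 0, 0.490 and 5.07 CPM. The other 17 genes summed to 48.1 to 52.4 CPM in wild type and to 43.1, 21.7, 30.1, 23.9 and 29.5 CPM in knockout replicates 1, 3, 5, 6 and 8, so without Ttr replicate 8 stood with replicates 3, 5 and 6. The summed level of 17 striatal genes ran from 979 to 1204 CPM over the wild-type mice, highest in replicate 5, and from 928 to 982 CPM over the knockout mice. The mean log2 levels of the striatal and of the choroid list, used below as covariates, did not overlap between the genotypes (striatal list 4.70 or above in wild type and 4.69 or below in knockout, choroid list 1.58 or above and 1.46 or below), so these covariates and the genotype cannot be fully told apart. By their sex-linked transcripts, 4 wild-type libraries were female and 1 male, and 3 knockout libraries were female and 2 male. In bulk tissue, fewer cells of a type and less RNA per cell cannot be told apart. Cortical identity was present in every library: the 14 upper-layer genes summed to 2350 to 2568 CPM in wild type and 2063 to 3080 CPM in knockout.

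The 3 Tshz genes were far more abundant than the 3 Zfhx genes when counts were divided by the length of all annotated exons. In wild type the length-scaled level was 12.2 ± 0.438 CPM per kb for Tshz3 (SD, n = 5), 8.89 ± 0.370 for Tshz2 and 7.25 ± 1.01 for Tshz1. It was 1.57 ± 0.202 CPM per kb for Zfhx2, 0.588 ± 0.0974 for Zfhx4 and 0.305 ± 0.0771 for Zfhx3 (SD, n = 5 each). Over the wild-type libraries, no neighbours in this order overlapped in their range. Tshz2 in knockout spread from 10.5 to 18.6 CPM per kb and overlapped with Tshz3, which spread from 11.9 to 15.3. The order of Tshz2 and Tshz3 depends on the length used: per kb of the longest transcript, Tshz2 stood at 13.6 ± 0.567 and Tshz3 at 13.1 ± 0.472 in wild type, and their ranges overlapped.

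**Figure D1:**
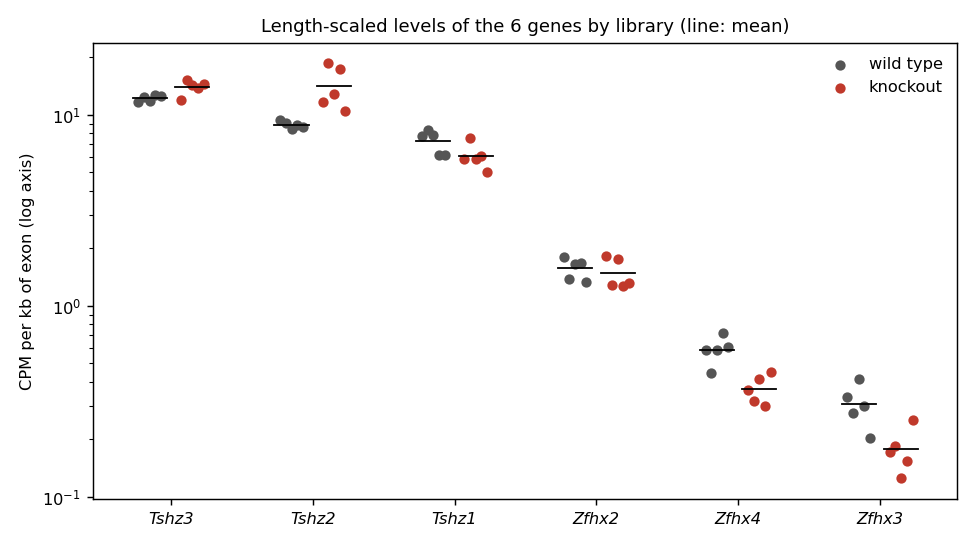
Level of each gene in CPM per kb of exon, on a log axis, with 1 point per library (grey for wild type, red for knockout) and a line at the mean of each group. The Tshz genes lie above 5 CPM per kb in all libraries and the Zfhx genes below 2, and Tshz2 in knockout spreads up to 18.6 CPM per kb.

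Zfhx3, the clock and striatal differentiation factor, was lower in most knockout libraries. It stood at 6.98, 5.80, 8.68, 6.30 and 4.27 CPM in wild-type replicates 2, 4, 5, 6 and 7, and at 3.59, 3.87, 2.63, 3.23 and 5.31 CPM in knockout replicates 1, 3, 5, 6 and 8. Wild-type replicate 7 was lower than knockout replicate 8, so the groups overlapped through these libraries only. The counts behind these values were small, between 84 and 150 in wild type and between 43 and 95 in knockout. The log2 fold change was -0.77 (SE 0.20), a fold of 0.584 with a 95% interval from 0.441 to 0.775. With the mean level of the striatal genes as a covariate the log2 fold change was -0.18, and with that of the choroid genes it was -0.60.

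Zfhx4, a close relative of Zfhx3, was shifted in the same direction. In wild type the libraries stood at 9.23, 6.98, 9.20, 11.3 and 9.57 CPM in replicate order, and in knockout at 5.69, 5.02, 6.49, 4.74 and 7.10 CPM. Wild-type replicate 4 was low and knockout replicate 8 high, and only these libraries crossed. The log2 fold change was -0.67 (SE 0.15), a fold of 0.626 with an interval from 0.504 to 0.779. With the striatal covariate it was -0.62 and with the choroid covariate -0.53.

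Zfhx2, the most abundant Zfhx gene, did not separate the genotypes. In replicate order the values were 32.8, 25.1, 30.1, 30.6 and 24.3 CPM for wild type and 33.1, 23.2, 31.8, 23.0 and 24.0 CPM for knockout. In each genotype some libraries lay between 23.0 and 25.1 CPM and the others between 30.1 and 33.1, so the ranges nearly coincided. The log2 fold change was -0.08 (SE 0.11), with an interval of the fold from 0.805 to 1.11. Zfhx2os, annotated on the opposite strand of Zfhx2, was counted at 1.48 ± 0.373 CPM (SD, n = 5) for wild type against 1.35 ± 0.662 CPM (SD, n = 5) for knockout. Its reads cannot be told apart from those of Zfhx2 where the genes overlap, since no strand setting is given, but its level was small beside that of Zfhx2.

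Tshz2, the near-projecting neuron marker, was higher in all knockout libraries. The wild-type libraries were close together, at 73.1, 70.4, 65.7, 69.2 and 67.3 CPM, with an SD of 2.88. The knockout libraries held 91.3, 144, 99.5, 135 and 81.6 CPM in replicates 1, 3, 5, 6 and 8, with an SD of 27.8. The lowest knockout library lay above the highest wild-type library, and knockout replicates 3 and 6 lay well above the other knockout libraries. The log2 fold change was 0.68 (SE 0.16), a fold of 1.60 with an interval from 1.23 to 2.07. Of the knockout libraries, replicate 3 had the lowest choroid sum and the most Tshz2, and replicates 1 and 8 had the highest sums and the least Tshz2. Replicate 5, close to replicate 6 in its choroid sum, held less Tshz2 than replicates 3 and 6. The cause of this spread was not tested. With the choroid list as a covariate the log2 fold change was 0.16, and with the striatal list 0.47. Without replicates 3 and 6, the libraries highest in Tshz2, it was 0.39, which is lower by that choice. Tshz2 was called by edgeR in that fit and not in the fit on all libraries. The libraries left out were chosen after seeing the data, so nothing is read from this call.

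Tshz3, the gene of deep-layer projection neurons, was shifted by a small amount in the direction of Tshz2. Wild type held 63.9, 67.9, 64.2, 69.0 and 68.3 CPM and knockout 65.1, 83.3, 77.9, 75.2 and 78.8 CPM. 4 knockout libraries lay above all wild-type libraries, and replicate 1 lay within their range. The log2 fold change was 0.19 (SE 0.061), and it was 0.0079 with the choroid list and 0.12 with the striatal list as a covariate.

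Tshz1, the gene of eminence-derived neurons, was shifted in the other direction. Wild type held 45.4, 48.5, 45.8, 36.2 and 35.9 CPM and knockout 34.2, 44.4, 34.3, 35.4 and 29.4 CPM. The groups overlapped: wild-type replicates 6 and 7 were low, and knockout replicate 3 stood among the higher wild-type libraries. The log2 fold change was -0.25 (SE 0.10), with an interval of the fold from 0.722 to 0.978, and the log2 fold change was -0.51 with the choroid list and -0.25 with the striatal list as a covariate.

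**Figure D2:**
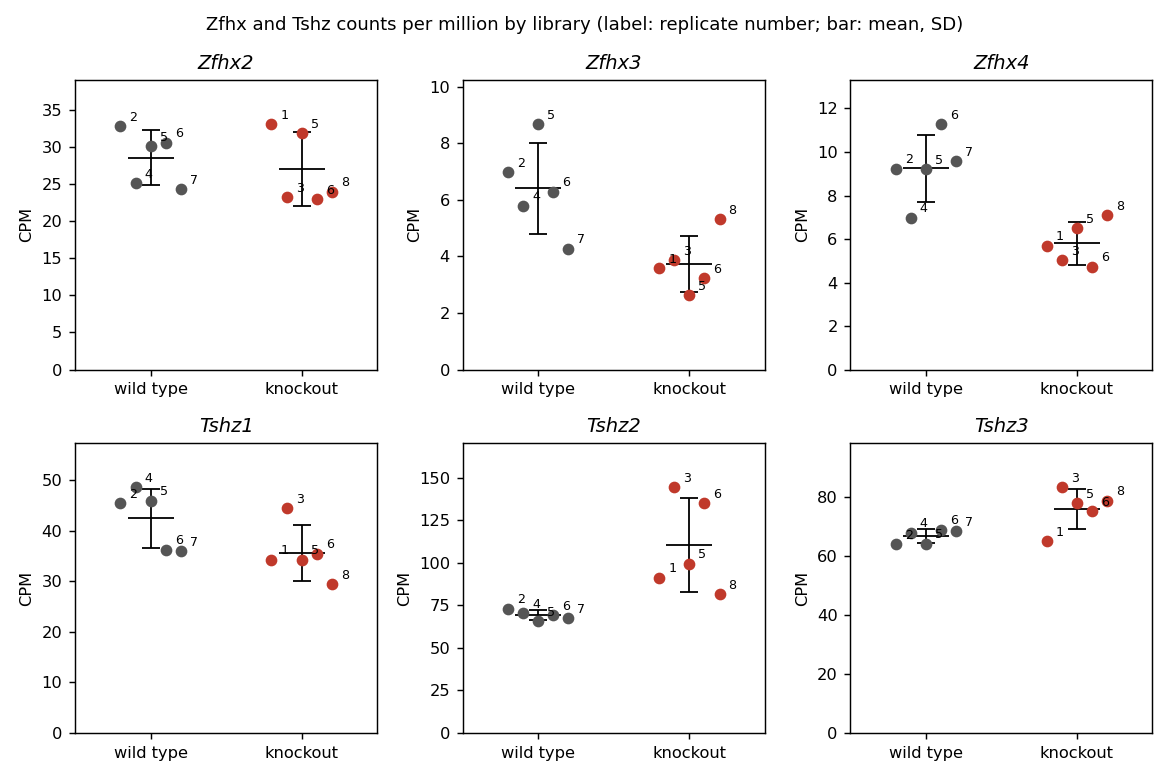
CPM of each gene in every library, with the replicate number beside each point and the mean and SD of each group of 5 in black. Tshz2 in knockout lies between 81.6 and 144 CPM, above all wild-type libraries, while Zfhx3 and Zfhx4 are lower in most knockout libraries.

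Of the 6 members, all passed the filter on low counts and 1, Zfhx4, passed an adjusted p of 0.05 in edgeR's quasi-likelihood test, where 0.381% of the 15488 tested genes passed. For 1 member, Tshz2, the groups did not overlap, where this held for 1.83% of tested genes. Because the members were chosen with this contrast known, nothing is read from these counts. Zfhx4 was called in 3 of 10 repeats with a library left out, those without wild-type replicate 4 and without knockout replicates 5 and 8. Zfhx3 was called in 2 of these (without wild-type replicate 7 and without knockout replicate 8) and Tshz2 in 1 (without knockout replicate 8). The fits without wild-type replicates 4 and 7 and without knockout replicates 5 and 8 called 21, 43, 50 and 182 of all tested genes. Which members were called changed with the tool: DESeq2 called Zfhx3, Zfhx4 and Tshz2, while limma-voom and the non-robust edgeR fit called Tshz2 and not Zfhx4. Over all tested genes these tools called 124, 45 and 52. With sex as a covariate 0 members and 28 genes were called. Nothing is read from these member calls either.

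The makeup of the Tshz family differed between the genotypes. As a share of the summed length-scaled level of the 3 Tshz genes, Tshz2 made up between 30.1% and 32.5% in wild type and between 35.0% and 46.7% in knockout. Tshz1 made up between 22.3% and 28.0% in wild type and between 16.3% and 19.8% in knockout, without overlap. Its own CPM did overlap between the genotypes, and its share also falls when the other Tshz levels in the sum rise. Tshz3 made up between 40.6% and 45.9% in wild type and between 36.9% and 48.2% in knockout, and these ranges overlapped. The summed level of the family was 28.3 ± 0.994 CPM per kb in wild type and 34.2 ± 5.07 CPM per kb in knockout (SD, n = 5 each). The Zfhx sum was 2.47 ± 0.312 and 2.03 ± 0.288 CPM per kb (SD, n = 5 each). These shares were computed with the length of all annotated exons only and depend on that length. They restate the contrast by which the genes were chosen.

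The other zinc-finger class homeobox genes are relatives of the 6. Of 8 tested, 0 were called by edgeR, DESeq2 or limma-voom and 1 had an unadjusted edgeR p under 0.05, which 8.71% of all tested genes had. Their log2 fold changes lay between -0.13 and 0.15, with a median of 0.0071 beside -0.0021 over all tested genes. For Zeb1, a repressor of epithelial and neuronal differentiation genes, it was 0.15 (SE 0.060, edgeR adjusted p = 0.419). Zhx1, a zinc-finger homeobox repressor, stood at -0.08 (SE 0.061), and Adnp, a chromatin factor of neurodevelopment, at -0.13 (SE 0.10). Zeb2, which acts in interneuron and cortical neuron development, had the highest CPM of the relatives, at 235 ± 12.1 (SD, n = 5) for wild type and 229 ± 34.1 (SD, n = 5) for knockout.

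Genes of proteins described as partners of Tshz or Zfhx3 formed the next list. Of its 10 genes, 9 were tested and Runx3 had no count in any library. Of the 9, 0 were called by edgeR, DESeq2 or limma-voom and 1 had an unadjusted edgeR p under 0.05, and the median log2 fold change was 0.02. The value was -0.21 for the histone deacetylase gene Hdac1 (SE 0.097, edgeR adjusted p = 0.538), 0.12 for the forkhead factor gene Foxo1 (SE 0.079) and 0.27 for the estrogen receptor gene Esr1 (SE 0.19). The corepressor gene Ctbp1 stood at 236 ± 9.53 CPM (SD, n = 5) for wild type and 237 ± 2.58 CPM (SD, n = 5) for knockout.

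Transcription factors of the lateral ganglionic eminence and of striatal projection neurons, the cells in which Zfhx3 and Tshz1 are known to act, formed a list in which 2 genes fell. Of 14 tested, edgeR called 0 higher and 2 lower, where it called 0.187% and 0.194% of all tested genes, 9 had an unadjusted edgeR p under 0.05, and 12 of the 14 fold changes were below 0, with a median of -0.30. Six3, a factor of indirect-pathway striatal neurons, fell by 2.70 (log2, SE 0.36, adjusted p = 0.000625), and Sp9, a factor of the same neurons and of interneurons, fell by 0.54 (SE 0.12, adjusted p = 0.0386). For Isl1, a factor of direct-pathway striatal and cholinergic neurons at 1.11 CPM in wild type, the value was -2.17 (SE 0.62, adjusted p = 0.172), and for Meis2 it was -0.19 (SE 0.060, adjusted p = 0.256). Six3 was called in all 10 repeats with a library left out and Sp9 in 3 of 10 (without wild-type replicate 6, knockout replicate 1 or knockout replicate 8), and limma-voom did not call Sp9. Of the 17 striatal genes other than transcription factors, 0 rose and 1 fell by edgeR, with a median of -0.35. An unadjusted edgeR p under 0.05 was found for 12 of them, and DESeq2 called 4 and limma-voom 3. The gene that fell was the enkephalin precursor gene Penk, by 1.03 (SE 0.16, adjusted p = 0.00989), a call lost without knockout replicate 3. The values were -0.77 for the dopamine receptor gene Drd2 (SE 0.20, adjusted p = 0.0985), -0.56 for Rgs9, a regulator of dopamine signalling (SE 0.16, adjusted p = 0.182), and 0.31 for the dynorphin precursor gene Pdyn (SE 0.093, adjusted p = 0.185).

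**Figure D3:**
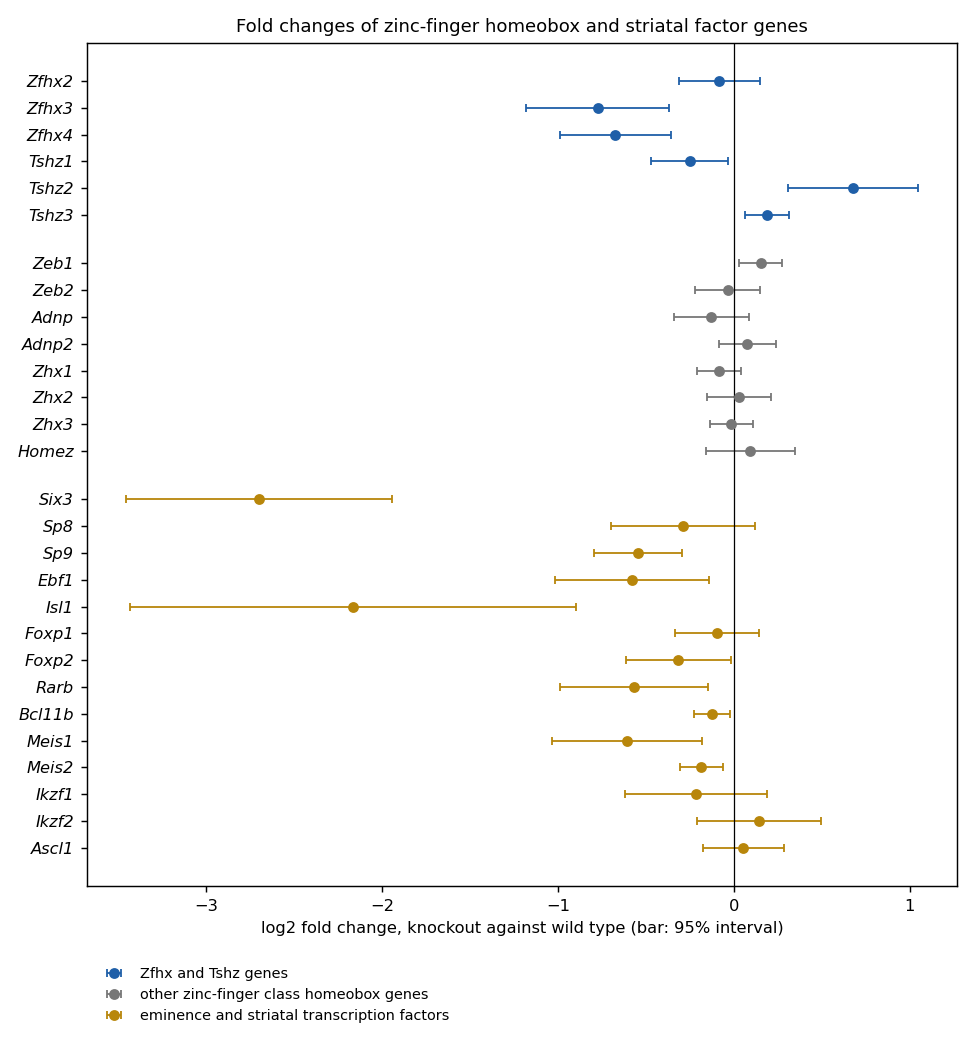
Log2 fold change of knockout against wild type with its 95% interval for the 6 Zfhx and Tshz genes (blue), the 8 other zinc-finger class homeobox genes (grey) and 14 factors of the eminence and striatum (gold). Zfhx3 and Zfhx4 lie at -0.77 and -0.67 and Tshz2 at 0.68, and the grey genes lie between -0.13 and 0.15.

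Marker lists of cortical and neighbouring cell types followed. Of 3 tested near-projecting markers, the cells that Tshz2 marks, 0 were called by edgeR, DESeq2 or limma-voom and 1 had an unadjusted edgeR p under 0.05, and their log2 fold changes lay between -0.20 and 0.15. Their summed level was 112 to 123 CPM over the wild-type and 96.4 to 116 CPM over the knockout libraries, ranges that overlapped, and 81.7% to 91.4% of it was 1 gene, Lypd1. Of 15 deep-layer genes 6 had an unadjusted edgeR p under 0.05, with a median of -0.02, and of 14 upper-layer genes 3 had one, and edgeR, DESeq2 and limma-voom called 0 genes of either list. The upper-layer genes had a median of -0.0082. Of 22 interneuron genes 1 fell, the vesicular GABA transporter gene Slc32a1 (-0.33, SE 0.061, edgeR adjusted p = 0.00989), with a median of -0.08 and 6 unadjusted edgeR p under 0.05, and the call was lost without wild-type replicate 5. Of 17 tested choroid plexus and ependymal genes, 2 fell, Clic6 (-1.83, SE 0.32, edgeR adjusted p = 0.00989) and Tmem72 (-1.60, SE 0.30, edgeR adjusted p = 0.0193), with a median of -0.88 and 9 unadjusted edgeR p under 0.05. DESeq2 called 3 (also Folr1) and limma-voom 4 (also Ttr and Otx2), and Tmem72 was not called without wild-type replicate 4, wild-type replicate 5 or knockout replicate 3. The 6 list genes called by edgeR were Six3, Sp9, Penk, Slc32a1, Clic6 and Tmem72. None of them was called with the striatal or the choroid covariate or with knockout replicates 1 and 8 alone. Over all tested genes those fits called 1, 0 and 12, so nothing is read from the lost calls. Penk belongs to the striatal list and Clic6 and Tmem72 to the choroid list, so each was adjusted for a mean that contains it. With knockout replicates 1, 5 and 8, chosen after seeing the data, Six3, Penk and Slc32a1 were called, and Sp9, Clic6 and Tmem72 were not. The part of these cell types in the shifts of the Zfhx and Tshz genes was not tested beyond the covariate values given.

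In the other lists 0 genes were called by edgeR, DESeq2 or limma-voom, and the number with an unadjusted edgeR p under 0.05 is given in brackets. The median log2 fold change was -0.16 for 9 thalamic genes (2), -0.08 for 5 septal and basal forebrain genes (1) and -0.20 for 7 olfactory bulb genes (1). It was 0.02 for 14 meningeal genes (0), -0.0032 for 14 endothelial and mural genes (2) and -0.34 for 6 red cell genes (2). It was 0.03 for 12 astrocyte genes (3), 0.06 for 12 oligodendrocyte lineage genes (0) and 0.10 for 11 microglia genes (1). It was -0.14 for 10 genes of immature neurons (3), -0.11 for 10 genes of dividing cells (0) and -0.03 for 12 stress genes (2).

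Covariation was examined after the mean of each genotype was removed from the log2 CPM values, so that the genotype difference itself did not enter. Over the 10 libraries, 15 pairs of members were compared, and 0 pairs passed an exact permutation test within genotype after Benjamini-Hochberg adjustment, while 2 had an unadjusted p under 0.05. Zfhx4 and Tshz1 moved in opposite directions, with a Pearson r of -0.751 (permutation p = 0.0127, adjusted p = 0.109) and a Spearman rho of -0.758 (permutation p = 0.0178, adjusted p = 0.247), and r was -0.627 without the 2 libraries farthest from the median of Zfhx4. Tshz1 and Tshz2 had an r of 0.640 (permutation p = 0.0145, adjusted p = 0.109) and a rho of 0.661 (permutation p = 0.0329, adjusted p = 0.247). Without knockout replicates 3 and 8, the farthest for Tshz1, that r was 0.169, so it rests on those libraries. Zfhx3 and Zfhx4, which shifted together between the genotypes, had an r of 0.181 (permutation p = 0.624, adjusted p = 0.912) and a rho of 0.224 (permutation p = 0.561, adjusted p = 0.876) within genotype, and r was 0.00067 without knockout replicate 8 and wild-type replicate 7.

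Against the mean level of 6 marker lists, 36 relations were computed. By r, 0 passed after adjustment and 2 had an unadjusted permutation p under 0.05. Both were of Zfhx3. With the eminence and striatal factor list its r was 0.881 (permutation p = 0.00465, adjusted p = 0.168) and its rho 0.818 (permutation p = 0.00792, adjusted p = 0.279), and r was 0.719 without wild-type replicate 7 and knockout replicate 8. With the striatal gene list r was 0.774 (permutation p = 0.0135, adjusted p = 0.244) and rho 0.600 (permutation p = 0.0930, adjusted p = 0.780), and r was 0.472 without wild-type replicate 5 and knockout replicate 8. By rho alone, Zfhx3 with the near-projecting list (rho -0.782, permutation p = 0.0155, adjusted p = 0.279) also had an unadjusted p under 0.05. So did Tshz3 with the interneuron list (rho -0.782, permutation p = 0.0265, adjusted p = 0.318). For Zfhx4 the r with the factor list was 0.294 (permutation p = 0.435, adjusted p = 0.746). Tshz2 and the choroid list had an r of -0.793 (permutation p = 0.132, adjusted p = 0.597) and a rho of -0.648 (permutation p = 0.146, adjusted p = 0.875), and r was -0.703 without knockout replicates 1 and 3.

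The genes most like each member were those with the highest r of the same centred values over the 10 libraries, out of 14237 named genes, given as a description since the highest of so many values is high by selection. For Tshz2 the first was Fezf2, the factor that specifies deep-layer subcortical projection neurons, with an r of 0.952. Fezf2 stood at 49.8, 48.8, 47.3, 47.4 and 49.5 CPM in wild type and at 54.2, 62.9, 55.3, 59.2 and 51.3 CPM in knockout. Its knockout libraries lay above all wild-type libraries. They stood in the same order as those of Tshz2, with replicates 3 and 6 highest and replicate 8 lowest. The search for the highest r favours such a match, since Tshz2 varied mostly in knockout. In wild type the orders differed: replicate 7 was above replicate 4 for Fezf2 and below it for Tshz2. The log2 fold change of Fezf2 was 0.22 (SE 0.063, edgeR adjusted p = 0.161, not called). Of the 15 deep-layer genes, Fezf2 among them, 7 had a log2 fold change above 0 and 8 below. With the mean of that list Tshz2 had an r of -0.067 (permutation p = 0.887, adjusted p = 0.968). With the near-projecting list its r was 0.29 (permutation p = 0.432, adjusted p = 0.746). Kcnk5 (r 0.940), a potassium channel gene, and Ephx1 (r 0.940), an epoxide hydrolase gene, came next. For Zfhx3 these were Ptpa (0.917), a phosphatase activator gene, Hip1r (0.907) and Lor (0.903), and for Zfhx4 Hlx (0.969), the calcium channel gene Cacna1a (0.943) and the Reelin receptor gene Vldlr (0.942). For Zfhx2 they were Plec (0.946), a cytoskeletal linker gene, Slc27a4 (0.934) and Tincr (0.913). For Tshz1 they were Dand5 (0.964), Cited4 (0.946) and the splicing kinase gene Clk2 (0.916), and for Tshz3 Ccnyl1 (0.947), Swsap1 (0.946) and Itm2a (0.935).

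**Figure D4:**
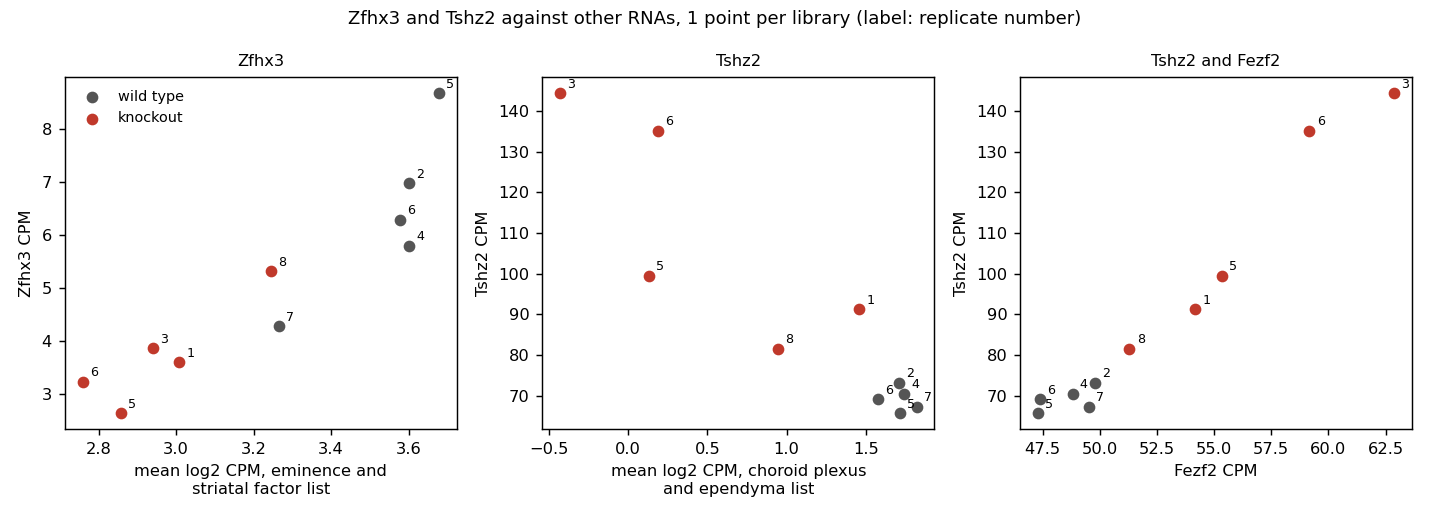
CPM of Zfhx3 against the mean log2 CPM of the eminence and striatal factor list (left), and of Tshz2 against that of the choroid and ependymal list (middle) and against Fezf2 CPM (right), 1 point per library with its replicate number. Knockout replicates 3 and 6 are highest for both Tshz2 and Fezf2, at 144 and 135 CPM and at 62.9 and 59.2 CPM. Fezf2 is shown because its r with Tshz2 was the highest, so this match is selected.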

How the data were processed

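The authors deposited 1 table of raw counts per gene with Entrez identifiers. HISAT2 and featureCounts were used on mm39, per the submitters' processing notes. The sources used here give no versions, annotation or strand setting. Symbols came from a RefSeq table of GRCm38.p6 (30648 of 30935 identifiers matched), exon lengths from the GENCODE M21 annotation of GRCm38, and promoter windows (4 of the 6 members have one) from RefSeq, with the Zfhx3 and Tshz2 windows printed.

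Genotypes were compared with edgeR 4.0.16 in R 4.3.3 (filterByExpr, TMM, robust quasi-likelihood test of genotype alone), with Benjamini-Hochberg adjustment over 15488 genes and a threshold of 0.05. Standard errors came from the F statistics. Log2 CPM used a prior count of 2. Correlations used all 14400 permutations within genotype, two-sided. The analysis was tested on simulated data. Alternatives covered scaling, filters, DESeq2 1.42.0, limma-voom (limma 3.58.1), a non-robust fit, each library left out, a replicate block, sex, striatal and choroid covariates, and fewer libraries. Libraries of a genotype differed by more than sampling noise (chi-square per degree of freedom 4.10 to 13.9), so each counted as 1 replicate. The design text calls the samples independent.

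The members and the 22 gene lists were chosen with earlier results of these data known; 259 of 260 list entries matched a gene. Named genes were the members, list genes past the threshold, the 3 genes most like each member, and Zfhx2os. The 3 or 4 list genes of smallest p in the family and striatal lists were also named. Zeb2, Ctbp1, Runx3, Ttr, Mef2c, Lypd1, Folr1 and Otx2 were added after their values were seen. The list of sex-linked genes served only to assign sex for the covariate.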

Additional observations from a re-analysis of the deposited data

Results flagged for a closer look

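A group of 5 libraries was singled out where its highest or lowest library was separated from its other 4 by a large gap. This was so for 5 of 56 groups examined, and chance gives about 1 in 20. None was a group of the 6 Zfhx and Tshz genes. Zfhx2os stood at 2.51 CPM in knockout replicate 1 and at 0.857 to 1.17 CPM in the other knockout libraries. The eminence and striatal factor list had its lowest wild-type mean in replicate 7, at a log2 CPM of 3.27 against 3.58 to 3.68 in the others. The striatal gene list had its highest wild-type mean in replicate 5, at 5.28 against 4.70 to 4.85. The endothelial and mural list was lowest in knockout replicate 1 (4.40 against 4.61 to 4.64), and the red cell list was highest in knockout replicate 8 (6.60 against 5.89 to 5.96).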

How the results depend on the processing

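The number of genes called, 59 of all tested, was 171 with no filter, 124 with DESeq2, 28 with the sex covariate, 1 with the striatal covariate, 0 with the choroid covariate, 12 with knockout replicates 1 and 8 alone, 18 with knockout replicates 1, 5 and 8 (chosen after seeing the data), and between 15 and 182 with 1 library left out. Of the 6 members, 1 in the main analysis, the number called was 2 with no filter, 3 with DESeq2, 0 with each of the sex, striatal and choroid covariates and with knockout replicates 1 and 8 alone, and between 0 and 3 with 1 library left out. With the replicate block 27 genes and 2 members (Zfhx3 and Tshz2, not Zfhx4) were called and the log2 fold change of Zfhx3 was -1.33. A replicate number found in a single genotype is absorbed by its own block. The genotype difference of that fit therefore rests on replicates 5 and 6 of each genotype only. Only the numbers 5 and 6 are shared by the genotypes, and the correlations of their deviations were -0.0303 and -0.0566. These values give no sign of pairing by number, but so few shared numbers cannot exclude it. With the striatal covariate the log2 fold change of Zfhx3 was -0.18. With the choroid covariate that of Tshz1 was -0.51, that of Tshz2 0.16 and that of Tshz3 0.0079. That of Tshz2 was 0.32 with knockout replicates 1 and 8 alone and 0.39 with replicates 1, 5 and 8. In the 10 fits that left out 1 library the log2 fold change ran from -0.93 to -0.64 for Zfhx3, from -0.76 to -0.59 for Zfhx4 and from 0.56 to 0.77 for Tshz2. Member pairs passing numbered between 0 and 1 with 1 library left out (Tshz1 and Tshz2 without wild-type replicate 5, Zfhx4 and Tshz1 without knockout replicate 6). Without removal of the genotype means, 1 pair (Zfhx4 and Tshz2) and 8 list relations passed. Those values hold the genotype difference by which the members were chosen, so nothing is read from them. The cause was not tested in the other cases. Depth limits Zfhx3 and Zfhx4 most, the members with the fewest counts.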
